A study of Mus musculus with 12 samples.

Results

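The ABC transporter genes of the mouse small intestine were examined in sorted stem cells and villus enterocytes of young and aged mice. Members were all rows of the raw count table whose gene name begins with Abca to Abcg followed by a digit, with pseudogene names marked by -ps to be left out, of which there were 0. The rule gave 50 members of 34245 rows, of which 16 belong to subfamily A, 10 to B, 10 to C, 4 to D, 1 to E, 3 to F and 6 to G. It does not hold ABC genes that carry other symbols, such as Cftr, Tap1 and Tap2, which are given apart.

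The mice were males on a C57BL/6 background that carried Lgr5-EGFP-IRES-creERT2, an allele that places EGFP under the Lgr5 promoter, and every group shared this allele. Intestinal stem cells (ISC) were GFP-high, DAPI-negative cells of crypt suspensions, sorted without antibodies, and adult enterocytes (AE) were Epcam-high, CD31-negative, CD45-negative, DAPI-negative cells of villus suspensions. The young mice averaged 33 weeks of age and the aged mice more than 2 years, and poly(A)+ RNA of 3 libraries per group was sequenced, 12 in all. Libraries are numbered 1 to 3 within a group in the order of their codes. The AE gate takes any Epcam-high villus cell and not absorptive enterocytes alone, and the ISC label rests on Lgr5 promoter activity.

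Of the 12 titles given to the samples, 8 hold a library code that names another group than the text after it, so each column of the table was assigned by the group that its own name spells. The summed level of 8 stem cell markers was 5812 to 8246 CPM, counts scaled to library size, in the 6 ISC libraries and 89.5 to 619.8 in the 6 AE libraries, and that of 10 enterocyte markers was 1344 to 7343 in ISC and 62235 to 96956 in AE, so the cell types of the columns were as named. The age of a column was not checked against a marker here. Within ISC the enterocyte markers were highest in young library 3 (7343 CPM) and within AE the stem cell markers were highest in young library 2 (619.8 CPM). The AE libraries also held more goblet cell markers (29442 to 61178 CPM against 1372 to 2214 in ISC) and more enteroendocrine markers (3371 to 12161 against 259 to 905). Library totals ran from 11893817 to 26796461 counts, except young AE library 3 with 110794420.

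ABC transporters use ATP to move drugs, conjugates, sterols, phospholipids, fatty acids and peptides across membranes. In the intestine, pumps of the brush border return drugs and plant sterols to the lumen, and exporters of the basolateral membrane pass conjugates and cholesterol toward the blood. The E and F subfamilies have the ATP-binding domains without a membrane part and act on ribosomes and translation.

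Of the 50 members, 6 had 0 counts in all 12 libraries (Abca6, Abca13, Abca15, Abca16, Abcb5 and Abcd2), 5 had 1 to 9 counts over all libraries (Abca4, Abca8a, Abca9, Abca17 and Abcg3) and 39 had at least 10. In 9 members, the 6 at 0 among them, no library exceeded 3 counts, which is the limit that a count of 0 allows. That floor corresponds to 0.0359 CPM in young AE library 3, the deepest, and to 0.327 CPM in aged AE library 3, the smallest after scaling. In the ISC libraries it was 0.0842 to 0.191 CPM, and an absence can be stated only below these levels. The floor covers counting error only, and reads carried no molecular identifiers. The SE and SD values given below also hold the spread between libraries.

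A sequence lies between a pair of members that changed together. Abcg5 and Abcg8 are read in opposite directions, and their RefSeq starts at positions 84683011 and 84683121 of chromosome 17 leave 109 bases between them, with no annotated exon in GENCODE M21. The stretch is chr17:84683012-84683120 of GRCm38.p6, plus strand, and the capitals mark AGATAA or its reverse complement TTATCT, the core letters that GATA factors bind.
Abcg5-Abcg8: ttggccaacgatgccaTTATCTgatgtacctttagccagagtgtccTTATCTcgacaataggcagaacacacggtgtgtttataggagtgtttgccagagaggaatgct
It holds 2 copies, read on both strands. Among the 109 bases before the start in all 32851 RefSeq windows, 3.98% hold at least 1 copy and 0.186% at least 2. The gene with the lowest p among sterol exporters in the comparison of aged with young AE was Abca1, and the 150 bases before its RefSeq start (chr4:53159896-53160045, minus strand, written 5′ to 3′) are given next. Capitals mark an E-box, CACGTG, and the letters TATAAA near the start.
Abca1: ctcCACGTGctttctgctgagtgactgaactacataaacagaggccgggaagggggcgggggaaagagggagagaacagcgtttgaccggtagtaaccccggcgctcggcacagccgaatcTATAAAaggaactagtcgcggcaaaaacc
Windows of 300 bases, 250 before and 50 after a start, were found for 38 of the 50 members, 45 windows in all. On either strand TATAAA was present in 13.6% of all windows and in those of 6 members (Abca1, Abca4, Abcb6, Abcg2, Abcg5 and Abcg8), CACGTG in 7.15% and 6 members, and AGATAA in 11.2% and 6 members. The CDX2-type TTTATNG, whose matches can overlap TATAAA, was present in 10.9% and in 6 members, Abca1, Abcg5 and Abcg8 among them. The HNF4-type CAAAGTCCA (0.475% of windows) was found in Abcd3 and CAAAGTTCA (0.39%) in Abcb1a. These matches describe letters and not bound sites.

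The first question the design poses for these genes is which of them differ between stem cells and their differentiated descendants. Most members with measurable RNA were higher in AE, among them 3 of 4 apical pumps, 4 of 5 sterol exporters and the peroxisomal transporter Abcd3, while the ribosome and translation proteins Abce1 and Abcf2 and the exporters Abcc1 and Abcc4 were lower. In young mice 37 members passed a minimum of 10 counts over the 6 libraries, and 22 of them were higher and 4 lower in AE at an adjusted p below 0.05 (edgeR quasi-likelihood, Benjamini-Hochberg over all 16681 genes tested). Over all those genes 27.7% were called higher and 25.4% lower. In aged mice 35 members were tested, 23 were higher and 5 lower, beside 30.0% and 34.1% of 15855 genes. The median log2 fold change of the tested members was 1.71 in young and 1.57 in aged mice, and over all genes tested it was 0.15 and -0.13.

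Those counts are a description of the members with counts, and 13 members in young mice and 15 in aged mice were not tested. In young mice 6 of the tested members, 1 of them called, reached the minimum through 1 cell type alone, and in aged mice 3, 1 of them called. The other 31 members in young mice held 21 higher and 4 lower, and the other 32 in aged mice 22 and 5. In young mice 3 tested members (Abcb1b, Abcb11 and Abcc9) had 0 counts in every ISC library, and with these at the bound set by the floor the young median was 1.43. In bulk RNA, fewer cells of a type and less RNA per cell cannot be told apart.

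At both ages 20 members were called higher in AE and 4 lower, of 35 tested at both, beside 26.5% and 26.4% of the 15581 genes tested at both. Abca14, which reached the count minimum through AE alone, is among those 20. The 2 age groups share no libraries in this comparison, and 0 members were called in opposite directions. Abcc12 and Abcf3 were called in young mice only, Abca2, Abcb6, Abcb8 and Abcc5 in aged mice only, and Abca8b, Abcb1b, Abcf1 and Abcg4 were among those called at neither age. Each of these 6 calls made at 1 age was lost when at least 1 library was left out, and whether the effect differed with age is tested further on. With the library codes as a replicate block, Abcb6 in young mice and Abcf3 in aged mice were also called higher (adjusted p = 0.0441 and 0.0484, edgeR) and Abcc12 in young mice was not (adjusted p = 0.0672).

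These values are relative to the scaling. TMM factors were 1.26 to 1.37 in ISC and 0.720 to 0.823 in AE, and without them each log2 difference of AE from ISC would be lower by 0.70 in young and 0.86 in aged mice, which turns Abcf3 in young and Abca2, Abcb6 and Abcc5 in aged mice and no other called member. Upper-quartile factors moved the median over all genes in young mice from 0.15 to 0.03.

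**Figure D1:**
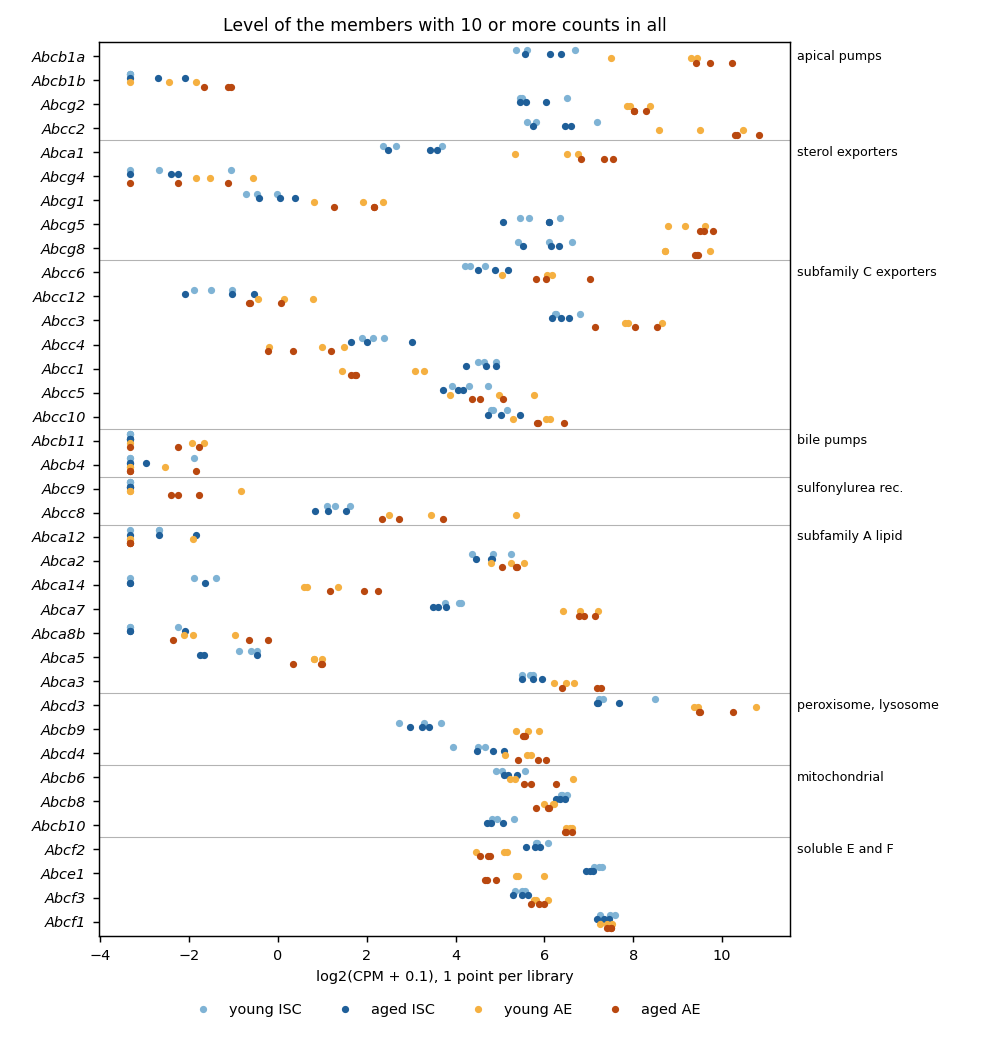
Level of 37 members with 10 or more counts in all, as log2(CPM + 0.1) on the horizontal axis, with 1 point per library in 4 colours for young and aged ISC and AE, grouped by role. The AE points lie to the right of the ISC points for Abcb1a, Abcc2, Abcg2, Abcg5, Abcg8 and Abcd3 and to the left for Abce1, Abcf2, Abcc1 and Abcc4.

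The apical drug and conjugate pumps were higher in AE in 3 of 4 members at both ages. Abcb1a, a P-glycoprotein that pumps lipophilic drugs into the lumen, was measured at 41.3, 48.4 and 104 CPM in the young ISC libraries and at 179.6, 693 and 634 CPM in the young AE libraries. In aged mice its level was 47.3, 69.5 and 82.5 CPM in ISC and 849.6, 1199.5 and 676 CPM in AE. Every AE library lay above every ISC library at both ages, and young AE library 1 was the lowest AE library. The rise was 7.78-fold in young mice (log2 2.96 ± 0.56 SE, adjusted p = 0.00284, edgeR) and 13.1-fold in aged mice (log2 3.71 ± 0.31, adjusted p = 5.21e-06). Abcb1a spans positions 8660077 to 8748575 of chromosome 5 on the plus strand of GRCm38.

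Abcc2, the Mrp2 pump for glucuronide and glutathione conjugates, had the largest mean CPM of the pumps, without scaling to length. Per kb of merged exon Abcc2 overlapped Abcb1a in ISC, with means of 9.79 against 11.8 in young and 9.32 against 12.1 in aged mice. It was at 56.1, 48.9 and 145 CPM in young ISC and 385, 729 and 1428 CPM in young AE, a 10.1-fold rise (log2 3.34 ± 0.60, adjusted p = 0.00217, edgeR). In aged mice the values were 53.8, 88.0 and 96.9 CPM in ISC and 1283, 1819 and 1245 CPM in AE, a 17.4-fold rise (log2 4.12 ± 0.31, adjusted p = 2.89e-06). The ranges did not overlap, and the young fold rested on library 3 of each cell type in part, with a log2 fold change of 4.01 without young ISC library 3 and 2.69 without young AE library 3.

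Abcg2, the breast cancer resistance protein, varied less within groups. Its CPM was 45.3, 43.7 and 90.8 in young ISC and 243, 230.3 and 333 in young AE, and 47.6, 65.9 and 43.7 in aged ISC and 259, 311 and 261 in aged AE. No ISC library reached the lowest AE library. The log2 rise was 2.16 ± 0.32 in young mice (adjusted p = 0.000935, edgeR) and 2.33 ± 0.21 in aged mice (adjusted p = 7.7e-06). Abcb1b, the paralog of Abcb1a that lies 49571 bases from it, was close to the floor: young ISC held 0 counts in each library, aged ISC 0, 1 and 3, young AE 0, 1 and 15 and aged AE 4, 4 and 2. It was not called at either age (adjusted p = 0.108 and 0.0978, edgeR), and reads that map to both paralogs were not among the uniquely mapped reads counted.

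Young ISC library 3 had the highest Abcb1a, Abcc2 and Abcg2 of the 3 young ISC libraries, at 104, 145 and 90.8 CPM, and it also had the most enterocyte marker signal. The part of that signal in the pump values was not tested. Without that library and without young AE library 2, a choice made after seeing the data that left 2 libraries against 2, 21 members were higher and 4 lower in young AE.

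**Figure D2:**
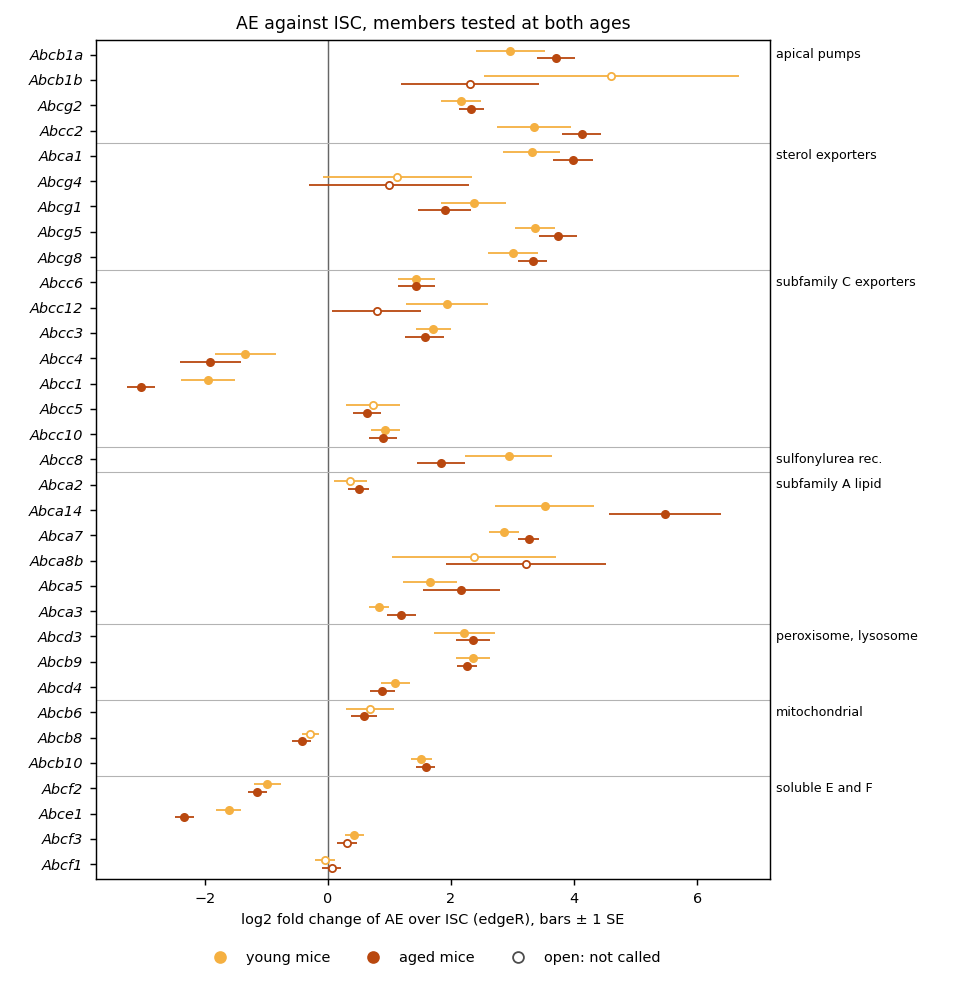
Log2 fold change of AE over ISC from edgeR for 33 members tested at both ages, with bars of 1 SE and open points where the adjusted p missed 0.05, in young and aged mice. Abcb1a, Abcc2, Abcg2, Abca1, Abcg5, Abcg8 and Abcd3 lie right of 0 at both ages, and Abce1, Abcf2, Abcc1 and Abcc4 left of it.

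The sterol exporters were higher in AE in 4 of 5 members at both ages, with medians of 3.01 and 3.32 on the log2 scale. Abcg5 and Abcg8 are the subunits of 1 complex that returns plant sterols and cholesterol to the gut lumen, and their shared upstream stretch was given above. In young mice Abcg5 was at 50.4, 43.8 and 81.1 CPM in ISC and 577, 442 and 786 in AE, and in aged mice at 33.3, 68.3 and 68.5 in ISC and 767, 728 and 889.8 in AE. Abcg8 was at 68.5, 42.6 and 97.8 CPM in young ISC and 417, 418 and 848 in young AE, and at 45.8, 70.8 and 79.6 in aged ISC and 667, 694 and 704 in aged AE. Neither gene's ISC and AE ranges met at either age. Abcg5 rose 10.3-fold in young and 13.3-fold in aged mice (log2 3.36 ± 0.33 and 3.74 ± 0.30, adjusted p = 0.000207 and 4.33e-06, edgeR). Abcg8 rose 8.05-fold in young mice (log2 3.01 ± 0.41, adjusted p = 0.000648) and by log2 3.32 ± 0.24 in aged mice (adjusted p = 2.37e-06). An alternative transcript of Abcg8 overlaps Abcg5 on the other strand over 6710 bases, and the strand setting of the counts is not given in the sources used here, so the split of reads between them is uncertain.

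Abca1, which loads cholesterol and phospholipid onto apolipoprotein A-I, was low in ISC and rose steeply. It was measured at 6.18, 5.05 and 12.9 CPM in young ISC and 40.6, 108 and 90.7 in young AE, and at 5.44, 11.8 and 10.7 in aged ISC and 113, 187 and 161 in aged AE. The AE values were all above the ISC values, with a 9.90-fold rise in young (log2 3.31 ± 0.47, adjusted p = 0.000789, edgeR) and a 15.8-fold rise in aged mice (log2 3.98 ± 0.33, adjusted p = 4.49e-06). Abcg1, an exporter of sterol to high-density lipoprotein, was far lower, at 0.892, 0.625 and 0.505 CPM in young ISC and 5.07, 1.65 and 3.68 in young AE. In aged mice Abcg1 was at 1.21, 0.648 and 0.933 CPM in ISC and 4.38, 4.39 and 2.29 in AE. Its groups did not overlap, and its log2 rise was 2.36 ± 0.53 in young and 1.90 ± 0.42 in aged mice (adjusted p = 0.006 and 0.00312, edgeR). Abcg4, its close relative of brain, held between 0 and 15 counts in any library and was not called (adjusted p = 0.455 and 0.524).

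The exporters of subfamily C were called in both directions. Of 7, all tested at both ages, 4 were higher and 2 lower in young AE, and likewise 4 and 2 in aged AE. Beside these, 27.7% of all genes tested were called higher and 25.4% lower in young AE, and 30.0% and 34.1% in aged AE. Abcc3, the basolateral Mrp3 exporter of conjugated bile acids and glucuronides, was at 74.9, 77.1 and 111 CPM in young ISC and 235, 226 and 401 in young AE. Its aged values were 72.0, 93.9 and 83.2 CPM in ISC and 262, 370.5 and 141 in AE. All AE values exceeded all ISC values, and the rise was 3.28-fold in young and 2.97-fold in aged mice (log2 1.71 ± 0.28 and 1.57 ± 0.32, adjusted p = 0.00139 and 0.00163, edgeR).

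Abcc1, the Mrp1 exporter of glutathione conjugates, moved the other way. It was at 30.1, 22.8 and 24.9 CPM in young ISC and 8.35, 9.68 and 2.63 in young AE, and at 25.6, 18.8 and 30.2 in aged ISC and 3.23, 3.05 and 3.27 in aged AE. The AE values were all below the ISC values, with young AE library 3 lower than the other young AE libraries. The fall was 3.86-fold in young and 8.20-fold in aged mice (log2 -1.95 ± 0.44 and -3.04 ± 0.23, adjusted p = 0.00672 and 3.03e-06, edgeR).

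Abcc4, the Mrp4 exporter of cyclic nucleotides, was at 4.33, 5.17 and 3.59 CPM in young ISC and 2.70, 1.90 and 0.777 in young AE, and at 3.90, 3.02 and 7.95 in aged ISC and 2.19, 1.17 and 0.763 in aged AE. The groups did not overlap at either age, and the log2 change was -1.34 ± 0.49 in young (adjusted p = 0.0478, edgeR) and -1.91 ± 0.50 in aged mice (adjusted p = 0.0072). The young call was lost without any 1 of the young ISC libraries (adjusted p = 0.105, 0.141 and 0.0697 without libraries 1, 2 and 3) and without young AE library 3 (0.0549). Abcc6, the gene mutated in pseudoxanthoma elasticum, and Abcc10 rose at both ages, Abcc6 by 2.70-fold and 2.71-fold and Abcc10 by 1.91-fold and 1.86-fold. Abcc5, an exporter of cyclic nucleotides, was called in aged AE alone (log2 0.64, adjusted p = 0.03, edgeR), and Abcc12 in young AE alone (log2 1.94, adjusted p = 0.0379), a call lost without 5 of the 6 libraries in turn.

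The bile pumps of the liver canaliculus were close to absent. Abcb4, the phosphatidylcholine floppase, held 0, 3 and 0 counts in young ISC, 1, 0 and 0 in aged ISC, 0, 0 and 6 in young AE and 0, 2 and 0 in aged AE. Abcb11, the bile salt export pump, had 0 counts in every ISC library and at most 18 in an AE library, the 18 being in the deepest library. Abcb11 was not called in young mice (adjusted p = 0.0852, edgeR) and was not tested between AE and ISC in aged mice, and Abcb4 was tested between AE and ISC at neither age.

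Abcc8, the SUR1 subunit of ATP-sensitive potassium channels known from endocrine cells, was at 3.00, 2.04 and 2.36 CPM in young ISC and 40.9, 10.8 and 5.55 in young AE, and at 2.08, 1.67 and 2.80 in aged ISC and 13.1, 5.02 and 6.54 in aged AE. AE was above ISC throughout, by a log2 of 2.94 ± 0.70 in young mice (adjusted p = 0.0085, edgeR) and 1.83 ± 0.39 in aged mice (adjusted p = 0.00239). Library 1 was the highest AE library at each age, and without young AE library 1 the young value was 1.68. The same libraries had the most enteroendocrine marker signal, with 8 markers summing to 12161, 4335 and 3371 CPM in young AE libraries 1, 2 and 3 and to 8258, 3871 and 4372 in aged AE, and all 8 markers had counts in AE. Of these markers 7 were higher and 1 lower in AE at each age. In ISC the marker sums were 259, 514 and 572 CPM in young and 905, 708 and 306 CPM in aged libraries 1 to 3. There the library with the lowest sum had the highest Abcc8 at each age. The part of enteroendocrine cells in the Abcc8 values was not tested. Abcc9, the SUR2 subunit, had 0 counts in every ISC library and 0, 0 and 39 in young AE.

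**Figure D3:**
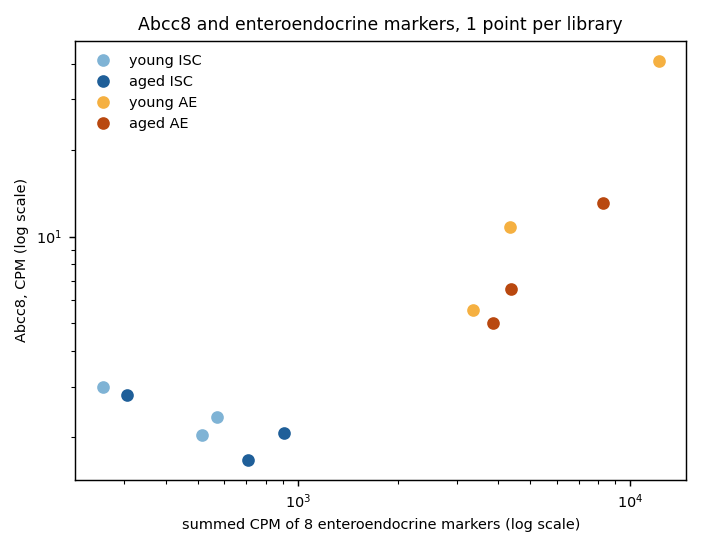
Abcc8 level in CPM against the summed CPM of 8 enteroendocrine markers, both on log axes, with 1 point for each of the 12 libraries coloured by group. Young AE library 1, at 40.9 CPM of Abcc8 and 12161 CPM of the markers, lies highest on both axes, and all ISC libraries lie at or below 3.00 and 905 CPM.

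Subfamily A holds lipid transporters of many tissues, and its 15 members besides Abca1 were mostly silent here. In each age group 6 were tested, of which 4 were higher in young AE and 5 in aged AE, with 0 lower. Over all genes tested 27.7% were called higher in young AE and 30.0% in aged AE. Abca14, described further on, counts among the higher members at both ages but reached the count minimum through AE alone. Abca7, a phospholipid transporter, was at 17.2, 13.4 and 16.9 CPM in young ISC and 148, 84.9 and 112 in young AE, and at 11.1, 11.98 and 13.6 in aged ISC and 119, 109.9 and 141 in aged AE. The groups stood far apart, with a 7.26-fold rise in young and a 9.57-fold rise in aged mice (log2 2.86 ± 0.24 and 3.26 ± 0.17, adjusted p = 0.000143 and 4.72e-07, edgeR). Abca3, the surfactant lipid transporter of lung, rose 1.78-fold and 2.29-fold, with a gene on the other strand over 5553 of its bases, and Abca5 rose 3.15-fold in young mice and by log2 2.17 in aged mice. Abca2 was called in aged AE alone (log2 0.50, adjusted p = 0.0269, edgeR). Abca8b held 11 counts or fewer in any library and was not called (adjusted p = 0.165 and 0.0525).

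Abca14 rested on few counts and reached the count minimum only through AE at both ages. Passing in that way favours a difference, so Abca14 is given as a description. It held 0, 5 and 3 counts in young ISC, 0, 0 and 5 in aged ISC, 18, 17 and 207 in young AE and 39, 24 and 43 in aged AE, that is 1.41 to 2.48 CPM in young AE and 2.15 to 4.69 CPM in aged AE. The fitted log2 difference was 3.52 ± 0.81 in young and 5.47 ± 0.92 in aged mice. Its size is poorly set: without young ISC library 2 the young value was 4.30, without aged ISC library 1 the aged value was 4.72, and without aged ISC library 3 both remaining aged ISC libraries were at 0. Its neighbour Abca15, 3317 bases away on the same strand, and Abca16, 1959 bases beyond that, were at 0 in every library. Abca4, the retinoid flippase of photoreceptors, held 1 count in 1 ISC library and 5 counts in 1 AE library, and Abca12, a ceramide transporter of skin, at most 4 counts in any library.

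Transporters of peroxisomes and lysosomes were higher in AE, among them Abcd3, Abcb9 and Abcd4 at both ages, and Abcd2 was at 0 in every library. Abcd3, the abundant PMP70 protein of the peroxisome membrane, was at 149, 159 and 358 CPM in young ISC and 657, 698 and 1744 in young AE, and at 145, 203 and 148 in aged ISC and 729, 1220.0 and 714 in aged AE. Library 3 was the highest of the young libraries in both cell types, and the groups did not overlap. The log2 rise was 2.22 ± 0.50 in young (adjusted p = 0.00627, edgeR), or 1.55 without young AE library 3, and 2.36 ± 0.28 in aged mice (adjusted p = 5.14e-05). Abcb9, a lysosomal peptide transporter, rose 5.12-fold and 4.79-fold, and Abcd4, which takes part in lysosomal cobalamin release, rose 2.14-fold and 1.85-fold.

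Transporters of the mitochondria moved by different amounts. Abcb10, which acts in heme synthesis in erythroid cells, rose 2.86-fold and 3.01-fold, from means of 32.8 ± 6.24 CPM (SD, n = 3) to 94.0 ± 4.23 in young mice and from 29.0 ± 3.75 to 92.0 ± 5.39 in aged mice. It overlaps a gene on the other strand over 30664 bases, so part of its count is uncertain. Abcb8 was 1.35-fold lower in aged AE (adjusted p = 0.0308), and Abcb6, which shares 8662 bases with a gene of the same strand, was higher by log2 0.58 (adjusted p = 0.0346), a sign that turns without TMM factors.

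Of the 4 soluble members, Abce1 and Abcf2 were lower in AE at both ages. Abce1, which splits ribosomes for recycling, was at 139, 156 and 149.7 CPM in young ISC and 42.1, 63.2 and 40.8 in young AE, and at 136, 122 and 130.3 in aged ISC and 25.9, 29.8 and 25.4 in aged AE. Each AE library was below each ISC library, with a 3.05-fold fall in young and a 5.03-fold fall in aged mice (log2 -1.61 ± 0.20 and -2.33 ± 0.15, adjusted p = 0.000508 and 1.35e-06, edgeR). Abcf2 fell 1.98-fold and 2.22-fold (log2 -0.98 ± 0.21 and -1.15 ± 0.15). Abcf1, a translation initiation factor, was at 177, 193 and 152 CPM in young ISC and 151, 169.7 and 184 in young AE, which overlap, and was called at neither age (adjusted p = 0.818 and 0.729). Abcf3 was 1.34-fold higher in young AE, a sign that turns without TMM factors, with an adjusted p of 0.0483 (edgeR) that passed no longer without each of the 6 libraries in turn.

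**Figure D4:**
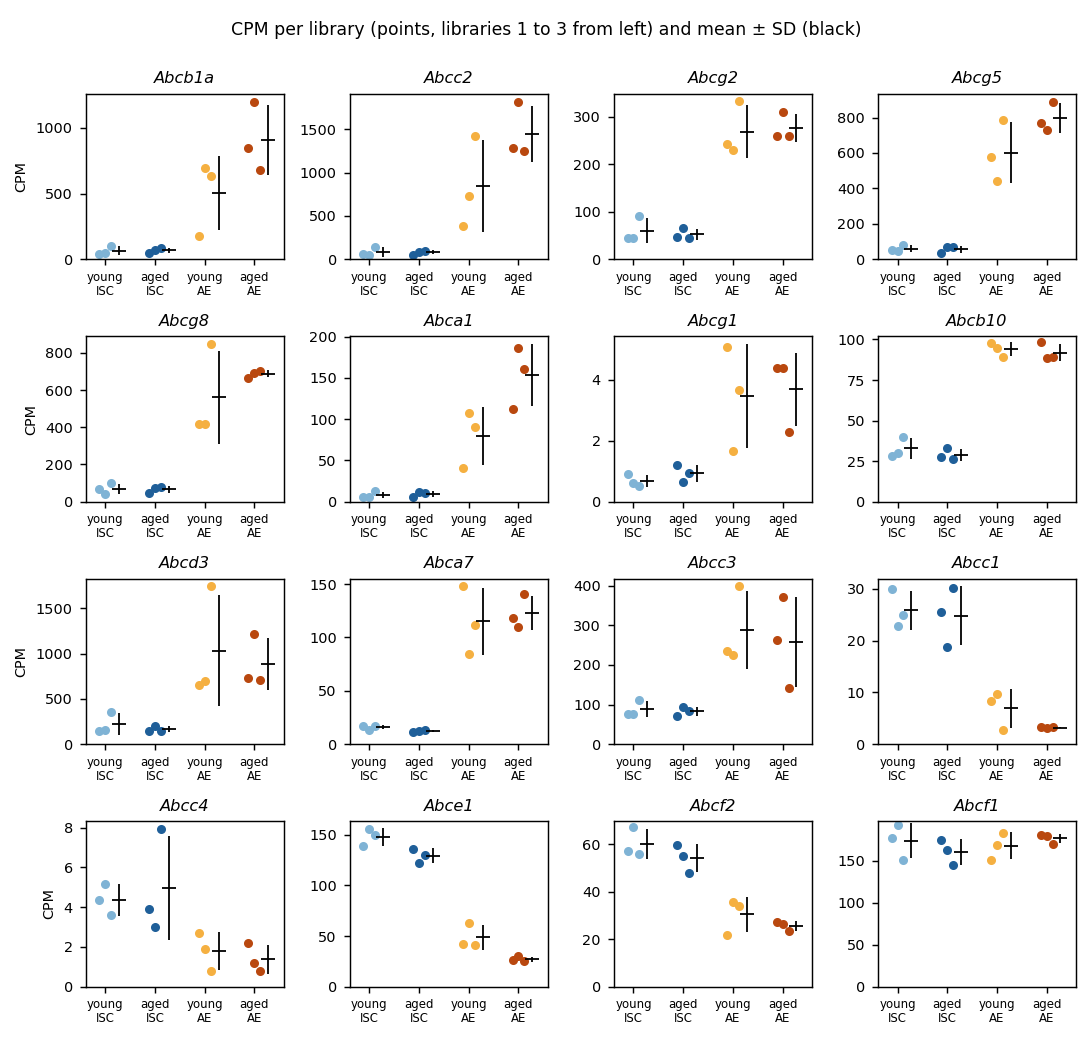
CPM of 16 members in each library, on linear axes from 0, with points for libraries 1 to 3 and black marks for the mean and SD of each group of 3. Abcb10 shows tight groups with means of 32.8 and 29.0 CPM in ISC and 94.0 and 92.0 CPM in AE, while Abcc2, Abcd3 and Abcb1a spread widely within young AE.

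Levels of different genes were compared per kilobase of merged exon, as CPM per kb. In young AE the leading members reported here were Abcg5 at 222 ± 63.9 (SD, n = 3), Abcd3 at 157 ± 93.5, Abcg8 at 149.7 ± 66.4, Abcc2 at 99.3 ± 62.3, Abcb1a at 91.6 ± 51.3 and Abcc3 at 50.4 ± 17.2. The spread of neighbours in this order overlapped, so their ranks are not set apart by 3 libraries. In aged AE the order was Abcg5 at 293 ± 31.1, Abcg8 at 184 ± 5.14, Abcc2 at 169.8 ± 37.6, Abcb1a at 166 ± 48.6 and Abcd3 at 135 ± 43.7. Only the step from Abcg5 to Abcg8 in this aged order was free of overlap between libraries. In ISC Abcf1 stood first at 39.4 ± 4.73 in young and 36.5 ± 3.45 in aged ISC, and Abcd3 and Abce1 followed in young ISC at 33.7 ± 17.8 and 24.7 ± 1.45, and their aged ISC levels were 25.1 ± 4.99 and 21.6 ± 1.17. Abcf1 was above Abcd3 in every library of aged ISC, and their ranges overlapped in young ISC.

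ABC genes under other symbols went both ways. Cftr, the chloride channel of crypts, was at 236, 223 and 229 CPM in young ISC and 50.2, 119 and 40.3 in young AE, a log2 change of -1.72 ± 0.38 (adjusted p = 0.00598, edgeR), and changed by -2.10 ± 0.20 in aged mice (adjusted p = 9.98e-06). Tap1 and Tap2, which feed peptides to MHC class I, were higher in AE by log2 1.57 ± 0.42 and 2.28 ± 0.26 in young mice and by 1.30 ± 0.44 and 2.37 ± 0.34 in aged mice.

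Genes that work with the transporters were taken from lists, which were chosen with earlier results of these data known. Of 8 uptake and partner genes, 8 were higher in AE at each age, with median log2 fold changes of 3.36 and 4.34. Npc1l1, which takes cholesterol up at the brush border where Abcg5 and Abcg8 return it, rose by log2 3.87 ± 0.37 and 4.89 ± 0.40 (adjusted p = 0.000204 and 4.36e-06, edgeR), and Soat2, which esterifies cholesterol for storage and secretion, by 3.53 ± 0.21 and 3.95 ± 0.20. Of 13 nuclear receptors and other regulators of ABC genes, 10 were higher and 1 lower in young AE and 8 and 1 in aged AE. Beside both lists, 27.7% of all genes tested were called higher and 25.4% lower in young AE, and 30.0% and 34.1% in aged AE. Nr1h3, the sterol receptor LXR alpha, rose by log2 1.43 ± 0.21 and 1.59 ± 0.17, and Nr1i2, the xenobiotic receptor PXR, by 1.41 ± 0.21 and 1.43 ± 0.15. Hnf4a was not called, at log2 -0.19 ± 0.23 and -0.17 ± 0.21, and Rxrb was the 1 called lower.

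The second question is whether the members change with age. None was called in either cell type. In ISC 33 members were tested and 0 called, beside 0% of 15552 genes called by edgeR at an adjusted p below 0.05; 1 member and 695 genes had an unadjusted p below 0.05, and DESeq2 called 59 genes and 0 members. In AE 37 members were tested and 0 called, beside 0% of 16265 genes; 3 members and 809 genes had an unadjusted p below 0.05, and DESeq2 called 17 genes and 0 members. The smallest p that an exact permutation test of 3 against 3 libraries can give is 0.1, so the test shared across genes was used. The study's methods list 3 mice in each age cohort, the labels tie libraries to animals by their codes alone, and p-values measure the spread between these libraries.

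With age, all 3 aged ISC libraries lay above the 3 young in 0 tested members and below in 1, beside 4.42% and 4.44% of all genes tested. In AE all 3 aged libraries lay above in 2 members, Abca1 and Abcb1b, and below in 1, Abce1, beside 4.01% and 6.94% of all genes. Those shares are close to the background. The separation of Abcb1b rests on 4, 4 and 2 counts in aged AE and 0, 1 and 15 in young AE, which is near the floor of 3 counts. For the 32 members with 100 or more counts in all, a limit chosen after seeing the data, the log2 change with age lay between -1.06 and 0.49 in ISC and between -1.16 and 0.96 in AE, with a median SE of 0.22 and 0.27. The -1.06 in ISC is that of Abca14, which held 5 counts or fewer in any ISC library. The highest SE of these members in ISC was 1.53. A change of several SE could still go uncalled with 3 libraries, as that of Abce1 in AE did, which is given next.

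Abce1 had the lowest p of the members in AE. Its aged AE libraries (25.9, 29.8 and 25.4 CPM) were all below the young ones (42.1, 63.2 and 40.8 CPM), a log2 change of -0.83 ± 0.21 with an unadjusted p of 0.00336 and an adjusted p = 0.833 (edgeR). In ISC its aged libraries (136, 122 and 130.3 CPM) were also all below the young (139, 156 and 149.7 CPM), by -0.18 ± 0.13 (adjusted p = 1.00). Abca1 was next in AE, with aged libraries at 113, 187 and 161 CPM above the young at 40.6, 108 and 90.7 CPM, by 0.96 ± 0.35 (unadjusted p = 0.0223, adjusted p = 0.833, edgeR), and in ISC by 0.22 ± 0.41. The third member with a low unadjusted p in AE, named after its value was seen, was Abcc1, at -1.07 ± 0.47 (unadjusted p = 0.0499, adjusted p = 0.833), where the young libraries (8.35, 9.68 and 2.63 CPM) spread around the aged ones. The stem cell markers were lower in aged AE in 7 of 8 genes (median log2 -1.14, 0 called). The Paneth cell markers were lower in 6 of 6 (median -1.23, 0 called), and the median over all genes tested was -0.04. Summed stem cell levels were 207, 619.8 and 89.5 CPM in young AE and 100.1, 176 and 157 CPM in aged AE. These ranges overlap, and young AE library 3 lay below each aged AE library. Young AE library 2 was the highest AE library for these markers, for Abce1 and for Abcc1, and without it the differences were -0.59 for Abce1 and -0.72 for Abcc1. The part of these markers in the member values was not tested.

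The number of low unadjusted p-values in AE moved with young AE library 3. Without that library 10 members and 13.9% of all 14848 genes tested had an unadjusted p below 0.05, against 3 members and 4.97% of genes with it, and 0 members were called in either fit. The library holds 110794420 counts, more than any other.

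In ISC the lowest p belonged to Abcc6, at 29.4, 22.5 and 36.1 CPM in aged and 25.1, 18.5 and 19.9 in young ISC, which overlap, with a log2 change of 0.48 ± 0.21 (unadjusted p = 0.0455, adjusted p = 1.00, edgeR). Its AE libraries were at 56.2, 65.2 and 130.2 CPM in aged and 66.5, 32.8 and 72.2 in young mice. Abca7 was next in ISC, where aged libraries at 11.1, 11.98 and 13.6 CPM overlapped the young at 17.2, 13.4 and 16.9, by -0.36 ± 0.19 (unadjusted p = 0.0821).

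No pump or sterol exporter passed the test between aged and young AE. The log2 differences of aged from young AE were 0.87 ± 0.46 for Abcb1a, 0.79 ± 0.42 for Abcc2, 0.42 ± 0.23 for Abcg5 and 0.31 ± 0.28 for Abcg8, with adjusted p = 0.833 for the first 3 and 0.856 for Abcg8 (edgeR). Their young and aged ranges overlapped. The differences were 0.06 ± 0.19 for Abcg2 and 0.11 ± 0.46 for Abcg1, and Abcg4 had the lower mean in aged AE, 0.156 CPM against 0.335. That aged mean lies under the level of 3 counts in each aged AE library (0.269 to 0.327 CPM). Enterocyte marker sums were 62235 to 77338 CPM in young AE and 78294 to 96956 CPM in aged AE. Of these markers 10 of 10 were higher in aged AE and 0 called, with a median log2 of 0.35 beside -0.04 over all genes tested. The part of this difference in the member values was not tested. In the other direction Abcc8 differed by -1.16 ± 0.68, set by young AE library 1 (0.05 without it).

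**Figure D5:**
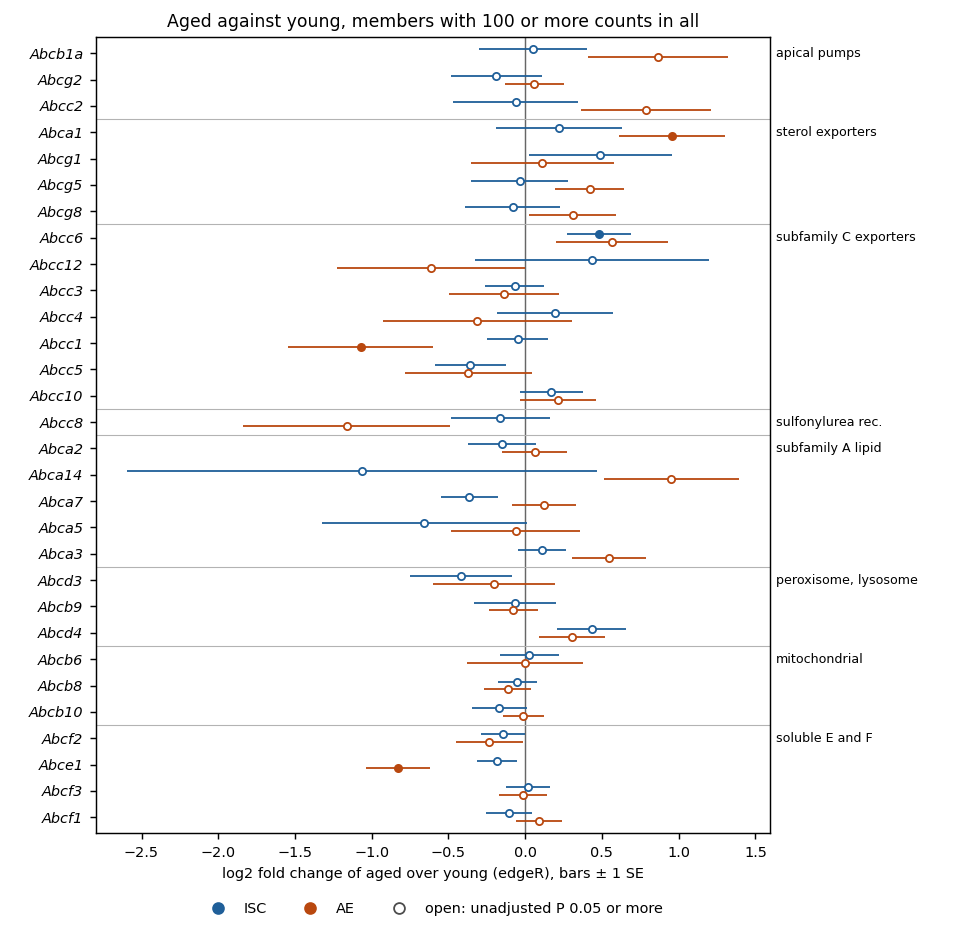
Log2 fold change of aged over young from edgeR, with bars of 1 SE, in ISC and AE for 30 members with 100 or more counts in all, and filled points where the unadjusted p was below 0.05. Filled points are Abcc6 in ISC and Abca1, Abce1 and Abcc1 in AE, and none passed after adjustment over all genes.

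The last comparison asks whether age acts differently in the cell types, as the difference of the age effect in AE from that in ISC. Of 39 members tested 0 were called, beside 0.00575% of 17377 genes (1 gene), and 1 member and 757 genes had an unadjusted p below 0.05, with 43 genes and 0 members called by DESeq2. With the replicate block 21 genes and 0 members were called, and 3 members had an unadjusted p below 0.05. That member was Abce1, with a difference of -0.65 ± 0.24 on the log2 scale (unadjusted p = 0.0175, adjusted p = 1.00, edgeR). Age effects that were past or short of a threshold in 1 cell type were therefore not shown to differ from the other.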

How the data were processed

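Poly(A)+ RNA of sorted ISC and AE was made into directional libraries by the authors. Per the labels and the study's methods, reads were trimmed with Trim Galore 0.4.4, aligned to GRCm38 with HISAT2 2.1.0, and uniquely mapped reads were quantified over merged exons in SeqMonk. The raw counts per gene deposited by the authors were used. Their second table, with log2 values and the authors' own comparisons, was not used.

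Genes whose summed count in a comparison reached 10 were tested with edgeR 4.0.16 (R 4.3.3) quasi-likelihood fits, TMM factors and Benjamini-Hochberg adjustment over all genes tested, with a threshold of 0.05. Each comparison used its own 6 libraries, and the difference of age effects used all 12. Levels are CPM on TMM-scaled library sizes with the mean and SD of 3 libraries. Exon lengths came from GENCODE M21, in which all 50 members matched and 47 had the same start and end, and promoter sequences from RefSeq (GRCm38.p6). Fits were checked on simulated counts. The alternatives were DESeq2 1.42.0, other scaling factors and filters, 1 fit of all groups, library codes as a replicate block, and fits without each single library. Fits without young ISC library 3 and young AE library 2 together were added after seeing the data.

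Libraries of ISC and AE with the same code deviated from their group means together (r = 0.22 to 0.428 in 6 of 6 code pairs, -0.389 to 0.127 for 12 other pairs, over genes with at least 120 counts), so the codes appear to pair the cell types. Deviations within a group sum to 0, so the values of the other pairs depend in part on those of the code pairs. The main fits were unpaired, and the pairing entered only through the replicate block.

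The members and lists were chosen with earlier results of these data known. Values in every library are given for the 4 apical pumps, the sterol exporters, Abcc1, Abcc3, Abcc4, Abca4, Abcb4 and Abcd3, for the 3 members that rose most and the 3 that fell most from ISC to AE among those called at both ages, for any member called with age, and for the 2 with the lowest p in each comparison by age. The values of 2 members are not reported here, in the text or the plots, though the counts include them. Abcc8, Abcf1, Abcf2 and the remaining named members were added for their roles.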

Additional observations from a re-analysis of the deposited data

How the results depend on the processing

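The counts of members called kept their size in each alternative run. In young mice 20 to 21 members were higher and 3 to 4 lower when any 1 library was left out, and 21 to 22 and 4 to 5 under the other settings. In aged mice the ranges were 20 to 25 and 4 to 5 without 1 library and 21 to 26 and 4 to 5 otherwise. The replicate block gave 22 higher and 4 lower members in young and 25 and 5 in aged mice and changed 4 member calls, while over all genes it raised the calls in the difference of age effects from 1 to 21, with 0 members among them. The comparisons by age and their difference held 0 called members under each setting. For the members chosen by the stated rule and for Abca3, Abcb9, Abcb10, Abcc8 and Abcf2, 895 fold changes were recomputed. Of these 882 kept their direction and side of the threshold, 4 lost the call, all of Abcc4 in young mice, and 1, Abcb1b, gained it. Among the 882, 314 were of AE against ISC in young mice and 293 in aged mice. The rest were of the comparisons by age and their difference, where 0 members were called and no call could be lost. The members called at 1 age alone are not among the 895, and the report gives their lost calls. Changes of sign were few. Abcg4 in young mice moved from 1.12 to -0.12 without the pair of young libraries with most markers of the other cell type. Without 1 library the age effect ranged from -0.028 to 0.74 for Abca1 in ISC, from -0.049 to 0.34 for Abca7 in AE, from -1.68 to 0.045 for Abcc8 in AE and from -0.42 to 0.27 for the difference of Abcc6. The cause was not tested. Depth limits members near the floor of 3 counts, for which neither presence nor a fold can be set.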
